A study of Mus musculus with 9 samples.

Results

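The transcriptome described here is that of primary mouse articular chondrocytes, the cells of joint cartilage, that had received vehicle only. Its members are the genes with at least 1 FPKM (fragments scaled by exon length and by library size, so that levels of different genes can be compared) in all 3 vehicle libraries, ranked by mean FPKM. They number 11069 of the 55450 genes listed, or 20.0%. All 9 libraries of the study came from cells cultured in 3% oxygen and 10% serum. Every group, 2 days after it was seeded, was first given hyaluronidase, of type I-S, for 4 h at 4 U/mL in the absence of serum. The vehicle group then received PBS for 24 h and, after a wash, DMSO for 5 days with medium renewed every 48 h. The bleomycin group received 50 µg/mL of bleomycin, a DNA-breaking drug, for 24 h and then DMSO for 5 days. The third group received the same bleomycin and then 20 µM of ST045849, an inhibitor of O-GlcNAc transferase, for 5 days. Each group had 3 libraries. The labels do not say whether they came from separate animals or cultures, so biological and technical parts of the spread between them cannot be told apart. Values of sex-linked genes, given below, differed between the vehicle libraries. Strain, age and sex are not named in the labels. The vehicle cells had therefore also been exposed to hyaluronidase and to a serum-free period.

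Articular chondrocytes are known for a matrix of type II, IX and XI collagen fibrils that hold aggrecan, a large proteoglycan bound to hyaluronan. SOX9, with SOX5 and SOX6, is the transcription factor known to switch on this program, while hypertrophic chondrocytes of growth cartilage make type X collagen and dedifferentiating chondrocytes in culture make type I collagen. Hypoxia-inducible factors act in cartilage because the tissue has no blood supply.

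The vehicle libraries summed to 406644, 340303 and 365028 FPKM, and the spacing of low values implied that 1 FPKM over 1 kb of exon stood for 35.8, 35.7 and 33.2 fragments. Library 1 stood apart by gene length. The median over genes of its difference from library 2 in log2(FPKM + 1) was 0.63 for genes with under 1 kb of exon and -0.27 for genes with 8 kb or more. Against library 3 these medians were 0.40 and -0.34, and between libraries 2 and 3 they were -0.16 and -0.06. Without library 1 the set held 11295 genes. Where a group of short or long genes differed between libraries below, the part of this length trend in the difference was not tested. Xist, expressed from the inactive X chromosome, was at 5.09, 37.3 and 32.2 FPKM, and the Y-linked gene Eif2s3y was at 19.8, 5.53 and 11.2 FPKM, so that both were measured in every vehicle library.

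**Figure D1:**
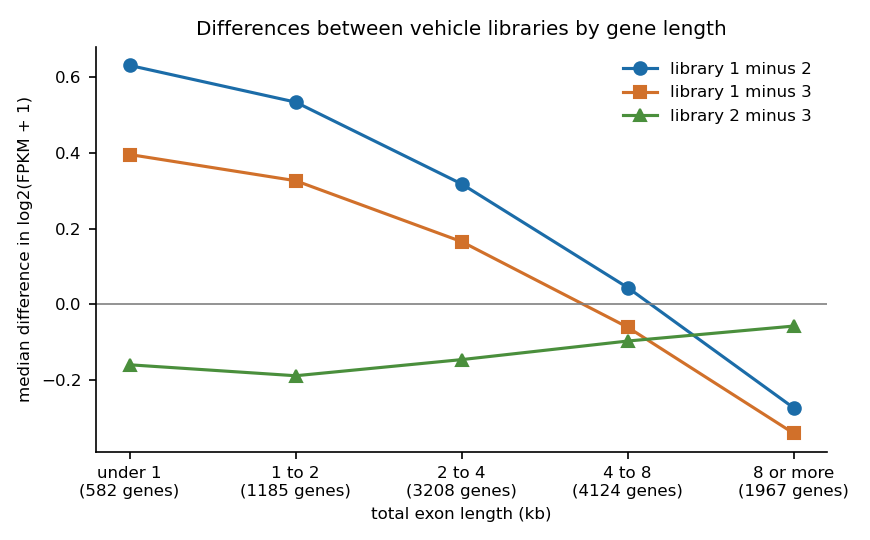
Median difference in log2(FPKM + 1) between pairs of vehicle libraries (vertical axis) for baseline genes in 5 classes of total exon length (horizontal axis, kb). Both lines that involve library 1 fall with length, from 0.63 to -0.27 against library 2 and from 0.40 to -0.34 against library 3, and the line of libraries 2 and 3 stays between -0.19 and -0.06.

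Most of the 55450 genes, which include noncoding genes and pseudogenes, were listed at 0 or at a low level. In all 3 vehicle libraries 31763 genes (57.3%) were listed at 0, and 37662 (67.9%) were below 0.1 FPKM. The levels of the baseline genes were very uneven. Between 1 and 10 FPKM lay 5861 genes with 7.54 ± 0.511% of the FPKM sum (SD, n = 3 libraries, as for all ± values of levels and shares below), while 30 genes at 1000 FPKM or more held 21.3 ± 2.38%. The 100 highest genes held 34.5 ± 1.86%, and protein-coding genes made up 10387 of the 11069. Of the 21961 genes annotated as protein-coding 47.3% were in the set, a share to be read beside the list counts below. Just inside the threshold was the small nucleolar RNA gene Snord4a, with a lowest value of 1.002 FPKM, and just outside it were the transcription factor gene Bnc2 at 0.9998 and the Polycomb gene Cbx2 at 0.998.

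The 3 markers of the cell type were all in the set. Col2a1, which encodes type II collagen (chr15:97975602-98004695, minus strand, GRCm38), had the highest mean of all genes, with 19454, 24072.5 and 16338 FPKM in vehicle libraries 1, 2 and 3. It ranked first in every vehicle library and held 4.78, 7.07 and 4.48% of the FPKM sum. Acan, the aggrecan gene (chr7:79053483-79115099, plus strand), was at 1023, 1508 and 1294 FPKM and ranked 21. Sox9 was at 72.9, 88.0 and 110 FPKM and ranked 570. Library 2 was the highest for Col2a1 and Acan and library 3 for Sox9, and all values lay far above the threshold.

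Among the 100 highest genes 35 were ribosomal protein genes named Rpl or Rps (Rpsa and Fau, also among them, were not counted), 26 were listed matrix genes, 6 were glycolysis genes and 4 were imprinted growth genes. None was among the listed receptors or transcription factors. After Col2a1 came Fn1 (fibronectin) at 5599 ± 718 FPKM, H19 at 4581 ± 834, the elongation factor gene Eef1a1 at 4339 ± 560, Igf2 at 4248 ± 1063 and Sparc, a collagen-binding matricellular protein gene, at 3492 ± 361. The order among these neighbours was not fixed: Eef1a1 was the highest of these 5 in library 1 and lay below Fn1, H19 and Igf2 in library 2. Mest, Comp, Cnmd, Col9a1, Rplp1, Col11a1, Rplp0, Tpt1, Thbs1, Col1a2, Col1a1, Eef2, Rpl4, Gapdh and Bgn were also among the 25 highest. The list also held Gm26377, Gm22133 and CT010467.1. The first pair are annotated small RNA genes that lie wholly within exons of Eef1a1 and Ftl1, so that their values cannot be told apart from those of their hosts, and CT010467.1 is a ribosomal RNA gene that ranged from 458 to 3528 FPKM.

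**Figure D2:**
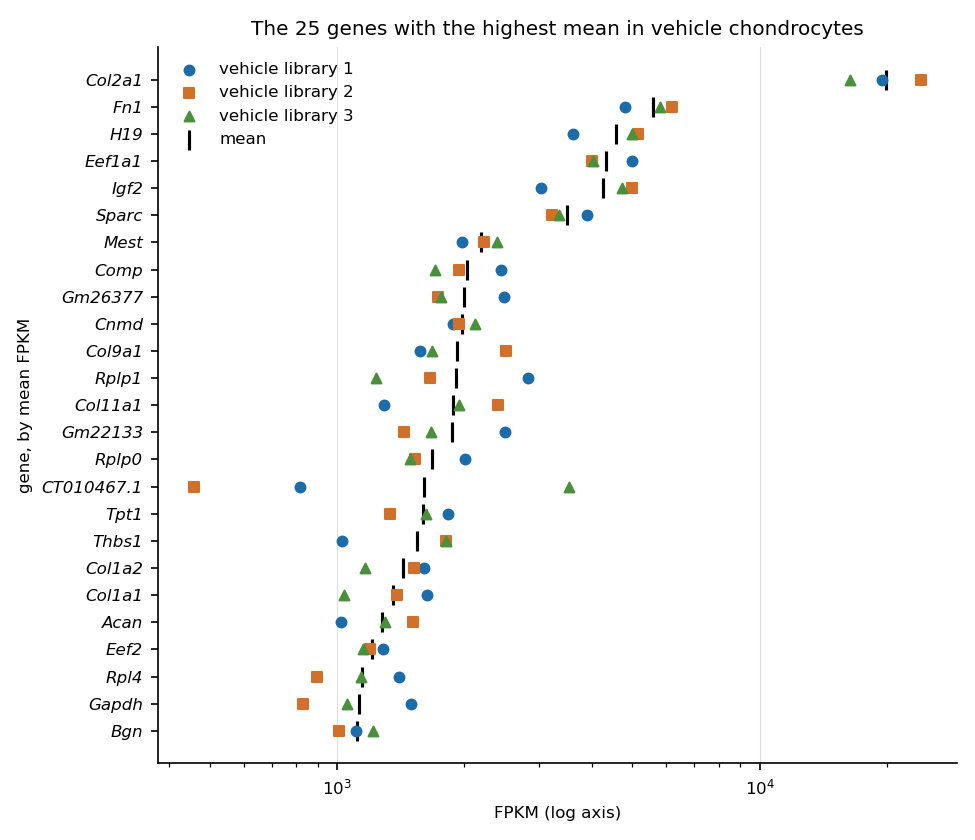
FPKM (log axis) of the 25 genes with the highest mean over the vehicle libraries, with 1 symbol for each library and a bar for the mean. Col2a1 lies apart at 16338 to 24072.5, and CT010467.1, a ribosomal RNA gene, has the widest scatter, from 458 to 3528.

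All 7 listed cartilage collagen genes were in the set and together held 7.28 ± 2.05% of the FPKM sum. Col9a1, a fibril-associated collagen gene, was at 1566, 2511 and 1675 FPKM, and Col11a1, whose product sits in the core of cartilage fibrils, was at 1290, 2403 and 1939. Their partner chains were lower, Col9a2 at 788 ± 272, Col9a3 at 879 ± 282 and Col11a2 at 981 ± 278 FPKM. Library 2 was the highest for all 7 genes, whose median exon length was 6874 bases. The level of Col2a1 was 11.2 ± 3.48 times that of Col11a1 and 10.6 ± 1.59 times that of Col9a1, ratios that were taken up after the values were seen.

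Genes for collagens of other connective tissues were also high. Of 14 stromal collagen genes 13 were in the set, led by Col1a2 at 1429 ± 233 FPKM and Col1a1, the main chain of bone and skin collagen, at 1631, 1387 and 1040 FPKM. Col3a1 followed at 685 ± 74.8, Col5a2 at 483 ± 80.0 and Col6a1 at 421 ± 63.2. Col1a1 was lowest in library 3 and highest in library 1. Even so, Col2a1 exceeded Col1a1 by 11.9, 17.4 and 15.7 times in libraries 1 to 3. In bulk RNA, a few cells with much Col1a1 and many cells with little of it cannot be told apart, nor can fewer cells of a type and less RNA per cell.

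Of the 21 genes for proteoglycans and link proteins 17 were in the set. Acan was followed by the small leucine-rich proteoglycan genes Bgn (biglycan) at 1110 ± 102, Fmod (fibromodulin) at 885 ± 42.8, Dcn (decorin) at 587 ± 87.9 and Epyc (epiphycan) at 363 ± 59.2 FPKM. Hapln1, whose link protein fastens aggrecan to hyaluronan, was at 211, 362 and 452 FPKM. Its relatives were low or not detected: Hapln3 had a mean of 0.87 and Hapln4 of 0.30, Hapln2 was listed at 0, and the neural proteoglycan gene Ncan stayed below 0.1 FPKM in all 3. Vcan (versican), the aggrecan relative of softer tissues, was at 5.92, 8.69 and 10.4 FPKM, and Acan exceeded it by 173, 173 and 124 times.

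The stretches before the start sites of 2 of these matrix genes are shown because both genes were above 1000 FPKM in every vehicle library while their promoters differ in composition. Acan is set beside Cnmd, which encodes chondromodulin, a cartilage protein that inhibits blood vessel growth, and was at 1880, 1941 and 2113 FPKM. The sequences are the 250 bases before the RefSeq start (GRCm38.p6), for Acan chr7:79052976-79053225 on the plus strand and for Cnmd chr14:79662184-79662433 on the minus strand, and capitals mark every CG dinucleotide, the site at which DNA can be methylated.
Acan: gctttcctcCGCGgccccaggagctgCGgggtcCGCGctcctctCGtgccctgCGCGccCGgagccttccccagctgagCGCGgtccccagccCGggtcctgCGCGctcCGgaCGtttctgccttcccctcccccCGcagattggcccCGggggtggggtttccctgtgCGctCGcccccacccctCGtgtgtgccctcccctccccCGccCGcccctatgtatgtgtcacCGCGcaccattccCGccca
Cnmd: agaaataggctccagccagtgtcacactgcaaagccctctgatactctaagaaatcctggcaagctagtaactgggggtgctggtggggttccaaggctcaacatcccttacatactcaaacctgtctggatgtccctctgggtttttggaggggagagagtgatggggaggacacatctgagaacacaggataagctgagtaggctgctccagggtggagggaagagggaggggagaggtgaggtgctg
The Acan stretch held 26 CG dinucleotides and 74.4% G and C, and 9.59% of all promoters in the table held as many or more. The Cnmd stretch held none and 54.0% G and C, and 7.87% of promoters held none. The median over all promoters was 6. The same stretches of the matrix genes Sparc, Col11a1, Col1a2 and Bgn held 4, 7, 11 and 7. The 2 shown are thus the extremes of the matrix promoters looked at. Across the 8354 of 10381 protein-coding baseline genes with an entry (80.5%), the median was 17 CG dinucleotides. For the protein-coding genes below 0.1 FPKM in all 3 and for the matrix genes the same check was void, because fewer than 80% of them had an entry.

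Adaptor and matricellular genes gave 18 of 21 members to the set and 4.10 ± 0.597% of the FPKM sum. Fn1 was at 4803, 6197 and 5798 FPKM and Comp, whose pentameric protein binds collagens II and IX, at 2444, 1947 and 1699. Matn1, a cartilage matrilin, varied more, with 585, 1383 and 673 FPKM, more than 2 times higher in library 2 than in the others. Thbs1 had a mean of 1548 ± 451 and Mgp, an inhibitor of calcification, of 891 ± 132 FPKM. Cilp, a gene named for the intermediate layer of articular cartilage, was near 0, at 0.0135, 0.0122 and 0 FPKM, and its relative Cilp2 reached only 0.155, 0.0975 and 0.0909.

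All 10 small secreted chondrocyte protein genes were in the set, among them Ucma at 833 ± 35.1, Scrg1 at 387 ± 76.8 and Snorc at 309 ± 108 FPKM. Basement membrane genes gave 14 of 20, led by Hspg2 (perlecan) at 173 ± 71.0 and Nid2 at 169 ± 24.5, while Lama1, Col4a3 and Col4a4 were below 0.1 FPKM in all 3. Elastic fibre genes gave 11 of 12, led by Efemp2 at 203 ± 22.7 and Emilin1 at 200 ± 42.0, with Eln (elastin) itself at 3.72 ± 0.554 FPKM.

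The genes that fold, trim and crosslink collagen were almost all expressed, 22 of 23. P4hb, a subunit of prolyl hydroxylase, was at 1132, 984 and 936 FPKM, and Serpinh1, the collagen chaperone HSP47, at 935, 557 and 696. Lox and Plod2, which act in collagen crosslinking, were at 332 ± 102 and 411 ± 73.2 FPKM. Glycosaminoglycan synthesis gave 20 of 25, led by Papss2, which makes the sulfate donor, at 246 ± 57.7, and Chst11, a chondroitin sulfotransferase gene, at 99.9 ± 26.5. Among the hyaluronan synthase genes Has2 was at 6.53, 7.36 and 7.53 FPKM, Has1 at 0.222 ± 0.127, and Has3 below 0.1 in all 3.

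Of 24 genes for matrix-degrading enzymes 15 were in the set. The lysosomal proteases Ctsl and Ctsb led, at 185 ± 33.1 and 128 ± 15.6 FPKM, and Mmp2, Htra1 and Mmp14 lay between 101 and 120 on average. Mmp13, the collagenase of hypertrophic and osteoarthritic cartilage, was at 122, 42.6 and 51.2 FPKM, more than 2 times higher in library 1 than in the others. The aggrecanase genes were low, Adamts5 at 6.13 ± 1.47 and Adamts4 at 1.80 ± 0.109 FPKM. Mmp8 and Mmp12 were listed at 0 and Mmp9, Mmp10 and Mmp17 were below 0.1 in all 3. Inhibitor genes stood higher, with 9 of 10 in the set: Timp3 was at 524 ± 82.9, Timp1 at 379 ± 141 and Timp2 at 216 ± 10.9 FPKM, and Timp4 was below 0.1.

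**Figure D3:**
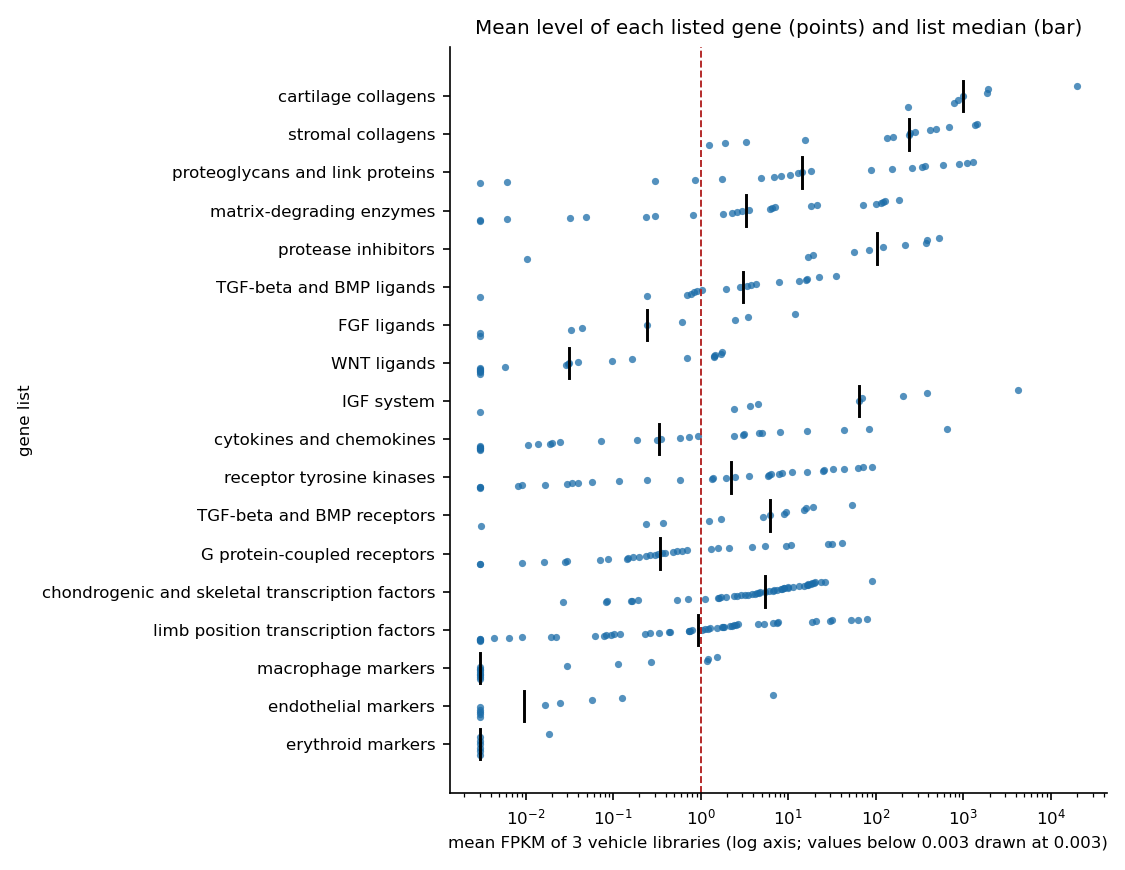
Mean FPKM over the 3 vehicle libraries (log axis) of every member of 18 gene lists (points), the median of each list (bars) and the threshold of 1 FPKM (dashed line). Cartilage collagens lie highest and the WNT ligands, macrophage, endothelial and erythroid markers lie mostly below the threshold.

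Secreted signals were in the set less often than matrix genes. Of the listed members 79 of 151 were in it, against 153 of 184 for the matrix and 47.3% of all annotated protein-coding genes. The listed secreted genes held 2.29 ± 0.445% of the FPKM sum, against 18.1 ± 3.05% for the matrix. The highest of them was Igf2, a fetal growth factor gene, at 3030, 4980 and 4735 FPKM. Library 1 was the lowest for it. Igf1, the related factor of postnatal growth, was at 2.70, 2.44 and 2.06 FPKM, and the ratio of Igf2 to Igf1 was 1821 ± 620. The values of Igf2 carry an uncertainty, because 62.8% of its exon length is shared with the annotated gene Gm49394. The binding protein genes Igfbp5 and Igfbp7 were at 383 ± 84.8 and 206 ± 18.4 FPKM, and Igfbp1 was listed at 0.

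Imprinted growth genes, which are expressed from 1 parental copy and are known for high fetal levels, were in the set in 17 of 18 cases and held 3.77 ± 1.05% of the FPKM sum. H19 is a noncoding RNA gene next to Igf2 on chromosome 7, at chr7:142575529-142578143 against chr7:142650766-142666816. Its level was 3622, 5141 and 4980.5 FPKM, 1.20, 1.03 and 1.05 times that of Igf2. Mest was at 2194 ± 212, the cell cycle inhibitor gene Cdkn1c at 718 ± 218, Peg3 at 377 ± 119 and Meg3 at 368 ± 33.5 FPKM. No member in the set was highest in library 1, and 12 of 17 were lowest there. These genes were long, with a median exon length of 7819 bases. Nnat was below 0.1 FPKM in all 3.

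TGF-beta and BMP ligand genes gave 11 of 18. Gdf5, the joint-forming factor, was the highest at 40.0, 37.5 and 26.8 FPKM, before Tgfb2 at 22.4 ± 6.11, Bmp4 at 16.5 ± 6.01, Tgfb3 at 16.0 ± 1.16 and Tgfb1 at 13.3 ± 2.12. Bmp2 stayed between 0.70 and 0.91 FPKM in the 3 libraries, and Mstn (myostatin) was listed at 0. Their antagonists and binders were expressed more widely, 13 of 14, with Fstl1 at 149 ± 15.5 and Grem1 (gremlin) at 61.1 ± 16.9 FPKM.

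The ligands of the other pathways of cartilage growth were low. Only 3 of 9 FGF genes were in the set, Fgf21 at 17.1, 6.14 and 12.3 FPKM, Fgf7 and Fgf2, while Fgf5 and Fgf9 were listed at 0. Of 19 WNT genes 4 were in the set, none with a mean above 2 FPKM, and 11 were below 0.1 in all 3. WNT antagonists stood well above them: Dkk3 was at 89.6 ± 9.57 and Frzb, a secreted WNT binder of cartilage, at 30.1, 52.2 and 42.7 FPKM, whereas Dkk1, Dkk2, Sost and Rspo4 stayed below 0.1. Of the hedgehog and PTHrP ligand genes, which space the growth plate, none of 4 reached the threshold. Ihh was at 0.254, 0.277 and 0.204 FPKM, Pthlh at 0, 0.0499 and 0, and Shh was listed at 0.

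Growth factor and peptide genes gave 23 of 35. Penk, which encodes the opioid precursor proenkephalin, was far above the rest at 875, 715 and 1255 FPKM, with library 3 the highest. The matricellular signals Ccn2 and Ccn1 followed at 356 ± 87.8 and 246 ± 38.7 FPKM, and Vegfa, the angiogenic factor, was at 46.2 ± 10.6. Among cytokines and chemokines 10 of 28 were in the set and 12 were below 0.1. Mif, the migration inhibitory factor gene, led at 657 ± 238 FPKM, then Tnfrsf11b, the osteoprotegerin gene, at 83.4 ± 15.4 and Csf1 at 42.9 ± 7.16. The inflammatory genes Il1a, Il1b and Tnf were listed at 0, and Il6 was at 0.0597, 0 and 0 FPKM.

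Receptor genes were expressed at moderate levels, with 102 of 169 in the set and none above 1000 FPKM. For the ligands that were low, receptors were nevertheless found. Fgfr1 was at 74.1, 102 and 99.3 FPKM, Fgfr3, the receptor that restrains growth cartilage, at 53.5, 86.5 and 72.2, and Fgfr2 at 50.6, 71.2 and 66.5, each lowest in library 1. Smo, the hedgehog signal transducer, was at 55.5 ± 5.33 and its receptor gene Ptch1 at 5.44, 10.1 and 4.76 FPKM. Pth1r, the PTHrP receptor, was at 49.0, 40.3 and 33.9, the highest of 32 listed G protein-coupled receptor genes. Fzd2 and Fzd9, both WNT receptors, were at 40.8 ± 3.02 and 38.3 ± 7.02 FPKM.

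The TGF-beta type 2 receptor gene Tgfbr2 was at 53.1 ± 9.46 and its partner Tgfbr1 at 3.55, 7.10 and 8.19 FPKM. Igf1r, through which IGF1 and IGF2 signal, was at 5.64, 9.55 and 8.48 FPKM, and Igf2r, which clears IGF2, at 47.0, 101 and 85.9. Of the integrin and matrix receptor genes 23 of 32 were in the set, led by Itgb1 at 174, 188 and 340 FPKM. Itga10, a collagen-binding integrin of chondrocytes, was at 14.3 ± 4.82, and the leukocyte integrin gene Itgb2 stayed below 0.1. Channel genes linked to load sensing were present, Trpv4 at 85.4, 79.0 and 78.1 and Piezo1 at 30.1 ± 2.85 FPKM, while Trpv1, Trpv5 and Trpv6 were listed at 0. No opioid receptor gene reached the threshold beside the high Penk: Oprm1 and Oprk1 were listed at 0, and Oprd1 was at 0.125, 0.301 and 0.295 FPKM. Receptors of endothelial and blood cells (Kdr, Tie1, Kit, Csf1r, Cxcr4) were below 0.1 FPKM in all 3.

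Transcription factor genes gave 99 of 155 and 0.432 ± 0.0512% of the FPKM sum. Sox6 was at 12.6, 26.1 and 21.9 FPKM and Sox5 at 6.25, 11.8 and 11.7, both lowest in library 1, and Sox9 exceeded them by 4.73 ± 1.23 and 9.52 ± 2.10 times. Other skeletal factors were Barx1 at 26.6 ± 6.14, Cbfb at 23.6 ± 7.17, Sox4 at 19.5 ± 8.22 and Trps1 at 18.8 ± 6.75 FPKM. Runx2, the hypertrophy and bone factor, was at 4.47, 6.25 and 7.23. Dlx3 and Nfatc2 were below 0.1 in all 3.

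Of 50 transcription factor genes that mark position along the limb 22 were in the set and 10 were below 0.1 FPKM in all 3. Tbx15 was the highest at 78.3, 70.5 and 89.2 FPKM, and Pitx1, a hindlimb factor, was at 64.0, 43.5 and 47.3. Tbx4, another hindlimb factor, was at 6.51, 6.68 and 7.04 FPKM and Tbx5, the forelimb counterpart, at 1.61, 1.95 and 1.73, a ratio of 3.85 ± 0.369. The labels used here do not name the joint.

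The 4 Hox clusters differed in their levels, a description that was extended to all members after values were seen. Hoxa genes summed to 110, 118 and 150 FPKM with 7 of 11 in the set, Hoxc genes to 38.4, 29.1 and 39.4 with 4 of 9, and Hoxd genes to 6.17, 3.50 and 4.68 with 2 of 9. Hoxb genes summed to only 0.146, 0.0868 and 0.0807, and 8 of its 10 genes were listed at 0. Within Hoxa the level rose towards paralog groups 10 and 11, with Hoxa9 at 18.9 ± 9.55, Hoxa10 at 62.9 ± 10.9 and Hoxa11 at 29.6 ± 1.52, and then dropped to 0.233 ± 0.0317 FPKM for Hoxa13, the gene of the hand and foot. Hoxc10 was the highest of its cluster at 20.6 ± 3.49, and Hoxd12 and Hoxd13 were below 0.1 in all 3. Hoxa11 shares 35.0% of its exon length with the antisense gene Hoxa11os, and no source used here states whether strand was used in counting.

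**Figure D4:**
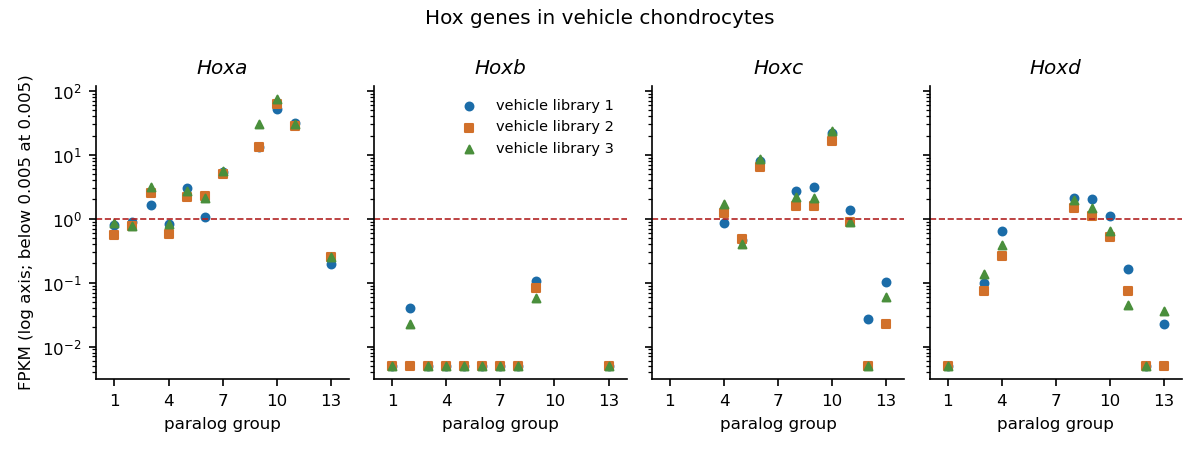
FPKM (log axis) of the Hox genes of the 4 clusters by paralog group, with 1 symbol for each vehicle library and the threshold of 1 FPKM as a dashed line. Hoxa and Hoxc peak at group 10, the highest Hoxd value is 2.10 and the highest Hoxb value is 0.106.

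Among factors that respond to oxygen, Hif1a was at 75.4, 115 and 167 FPKM and Epas1, which encodes HIF2-alpha, at 2.65, 3.32 and 3.21. The ratio was 28.4, 34.7 and 51.9. Hypoxia-induced and glycolysis genes gave 31 of 32, with Gapdh at 1126 ± 339, Ldha at 1108 ± 372, Pkm at 966 ± 230 and the mitophagy gene Bnip3 at 310 ± 41.6 FPKM. Ldha was at 1536 in library 1 and at 922 and 865 in the others. Egln3, which marks these factors for breakdown when oxygen is present, was at 12.9, 12.9 and 11.2. No normal-oxygen group was studied, so these levels have no comparison with higher oxygen.

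Immediate early and AP-1 genes gave 14 of 17, led by Jund at 92.9 ± 17.8 FPKM, with Fos at 2.62, 3.54 and 3.48. Of the nuclear receptor genes 17 of 32 were in the set, with the retinoic acid receptor gene Rarg at 89.2, 76.1 and 82.7 and the thyroid hormone receptor gene Thra at 32.6 ± 1.42 FPKM. The glucocorticoid receptor gene Nr3c1 was at 11.7 ± 3.42 and the vitamin D receptor gene Vdr at 2.62 ± 0.283. The steroid receptor genes Esr2 and Pgr stayed below 0.1 FPKM in all 3.

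Genes of the joint surface and of hypertrophic cartilage were both found. Prg4, the lubricin gene of the superficial zone, was at 14.4, 9.50 and 14.9 FPKM, and Acan exceeded it by 71.1 to 159 times. Of the 13 superficial zone and articular genes 10 were in the set, and of the 14 hypertrophic genes 13. Col10a1 was at 48.8, 70.4 and 55.2 FPKM, and Col2a1 exceeded it by 346 ± 51.6 times. Spp1 (osteopontin) was at 543, 240 and 275 and Ibsp (bone sialoprotein) at 20.9, 3.95 and 7.39 FPKM, both highest in library 1. The late bone genes Bglap2 and Mepe were below 0.1 in all 3.

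Markers of other cell types were mostly low or not detected. Of 14 macrophage genes 1 was in the set, Cd14 at 2.13, 1.20 and 1.27 FPKM, and 8, among them Ptprc, Adgre1 and C1qa, were listed at 0. Of 10 endothelial genes the set held Erg, which chondrocytes also express, at 6.69 ± 0.995 FPKM, and Cdh5 and Pecam1 were below 0.1. None of 7 erythroid and 8 lymphocyte genes was in the set. The adipocyte list had Fabp4 at 17.3, 7.13 and 9.23 FPKM with Adipoq and Plin1 below 0.1, and the muscle list had Tnnt3 at 4.07 ± 0.377 with Ckm and Pax7 listed at 0. Acp5, an osteoclast gene, was at 20.7, 12.1 and 11.9 FPKM, with Calcr and Dcstamp listed at 0. S100b, listed here as a Schwann cell gene and also made by chondrocytes, was at 156 ± 31.5 FPKM, with Sox10 below 0.1 in all 3.

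More members were in the set for the fibroblast and synovial list (10 of 14), the contractile cell list (6 of 9) and the tendon list (4 of 6). Of 10 osteoblast and osteocyte markers 4 were in the set, Col1a1 and Ibsp given above among them. The tendon list summed to 955, 871 and 870 FPKM, mostly from Fmod, which cartilage also expresses, with the tendon factor gene Scx at 14.4, 5.22 and 7.23 and Tnmd at 1.15, 0.162 and 0.669. Beside the collagen genes, Ly6a was at 425, 95.8 and 336 FPKM, S100a4 at 228, 84.8 and 94.5 and Pdpn at 41.0 ± 9.62, while Pi16 and Clic5 were below 0.1. Acta2 (smooth muscle actin) was at 114, 69.5 and 91.7 FPKM and Tagln at 52.8 ± 7.61, with Myh11 below 0.1. Ly6a was more than 3 times lower in library 2 than in the others. Whether such RNA came from chondrocytes or from other cells was not tested.

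Cell cycle genes gave 31 of 36, with Pcna at 14.4 ± 4.18, Top2a at 13.1 ± 2.56 and Mki67 at 3.81, 1.55 and 2.06 FPKM. All 20 genes of endoplasmic reticulum folding were in the set, with the chaperone genes Calr at 764 ± 107 and Hspa5 at 389 ± 65.8. The p53 target Cdkn1a was at 157, 111 and 151 FPKM in these cells without bleomycin. Of 29 interferon-stimulated genes 10 were in the set, led by Ifi27 at 69.0 ± 27.2, and Mx1, Oas2 and Rsad2 were listed at 0.

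The spread between the vehicle libraries stayed within 1 log2 unit for most genes and was patterned for some. The median SD of log2(FPKM + 1) over the 3 libraries was 0.25, and 813 genes (7.34%) ranged over more than 1 log2 unit. Without library 1 the median fell to 0.15. Over the same genes the median SD was 0.19 in the bleomycin libraries and 0.34 in those with bleomycin plus ST045849. Pearson correlations of log2(FPKM + 1) over the 11069 genes, which are not independent replicates, were 0.956 and 0.958 for the pairs with library 1 and 0.978 for libraries 2 and 3. Differences of more than 1 unit of log2(FPKM + 1) were found for 473, 436 and 143 genes in the pairs 1 and 2, 1 and 3, and 2 and 3. Because of the added 1, such a difference is more than 2-fold in FPKM, most of all at low levels.

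The genes that varied most, among 5208 with a mean of at least 10 FPKM, were of several kinds. Small RNA genes and ribosomal RNA (Gm24270, Gm27927, Mir703, Mir6236 and CT010467.1) made up 5 of the 10, and Xist, which contains Gm27927, was another. Of the protein-coding ones, Ak4, a mitochondrial adenylate kinase gene, was at 3.01, 32.9 and 6.43 FPKM and Nfat5, the osmotic stress factor, at 3.42, 26.7 and 24.5. Rbmxl1 was low in library 3, at 21.4, 15.2 and 1.65, and Chtf8, whose exons are shared with a second entry of that name, was low in library 1, at 4.17, 34.5 and 27.5. The most even gene was Hyou1, a chaperone of the endoplasmic reticulum, at 36.5, 36.4 and 36.4 FPKM, followed by Arl14ep, Pcmt1, Elmo2, Ndrg3, Clip4, Crlf3, Parva, Evc2 and Wrnip1.

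Whole programs moved together between libraries. Of 81 ribosomal protein genes named in that way 78 were highest in library 1, and of 29 amino acid response genes in the set (targets of ATF4) 24 were highest there and 23 lowest in library 2. Ddit3, the CHOP factor of that response, was at 116, 30.1 and 55.9 FPKM, and Chac1 at 56.2, 13.2 and 23.0. Cell cycle genes behaved alike, with 25 of 31 highest in library 1 and 28 lowest in library 2. For comparison, library 1 was the highest for 46.7% and library 2 the lowest for 46.5% of all baseline genes. The ribosomal protein genes were short, with a median exon length of 1770 bases, and the amino acid response and cell cycle genes had medians of 3529 and 4059, against 4173 over all listed genes in the set.

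The baseline set was largely kept in the treated groups. At least 1 FPKM in all 3 libraries was reached by 11502 genes with bleomycin, of which 10825 were baseline genes (97.8% of the baseline set and 94.1% of the bleomycin set), and by 11056 genes with bleomycin plus ST045849, of which 10474 were (94.6 and 94.7%). Both comparisons use the same vehicle libraries. In a limma fit of log2(FPKM + 1) over 12441 genes, 4.88% were called with bleomycin at a Benjamini-Hochberg adjusted p under 0.05 (4.20% higher, 0.675% lower) and 9.85% with bleomycin plus ST045849 (8.11% higher, 1.74% lower). Of the 11069 baseline genes 418 were called with bleomycin, 334 higher and 84 lower, or 3.78%. With median-of-ratios scaling, which moved the median of all tested genes from 0.10 to -0.05 on the log2 scale, the split was 184 higher and 150 lower. With bleomycin plus ST045849 there were 956 calls, 745 higher and 211 lower, and after that scaling, which moved the median from 0.19 to -0.01, 315 higher and 396 lower, so the split between higher and lower depended on the scaling. The bleomycin count fell to 130 without vehicle library 2, 148 without library 3 and 242 without library 1.

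Of the 100 highest genes 3 were called with bleomycin, 2 higher and 1 lower, and 10 with bleomycin plus ST045849, 6 higher and 4 lower. These 100 were chosen by the vehicle values that also enter the comparison, and their median log2 difference with bleomycin was -0.50. Penk went from 715 to 1255 FPKM in vehicle to 9501, 5418 and 3622 in the bleomycin libraries, a log2 difference of 2.63 ± 0.38 (SE, limma adjusted p = 0.00409, but 0.0645 with no filter on low genes). Dcn went from 540, 532 and 688 to 1604, 1094 and 1391 FPKM, a difference of 1.21 ± 0.31 (adjusted p = 0.0489), which did not pass with any single vehicle or bleomycin library left out (adjusted p = 0.0964 to 0.186) or with median-of-ratios scaling (adjusted p = 0.0969). H19 fell from 3622, 5141 and 4980.5 to 1495, 1655 and 1731 FPKM, by 1.48 ± 0.27 on the log2 scale (adjusted p = 0.0119), but did not pass when any of vehicle libraries 2 and 3 and bleomycin libraries 1 and 2 was left out (adjusted p = 0.0613 to 0.0699) or with no filter (adjusted p = 0.148). In each case the vehicle and bleomycin groups did not overlap. That does not set these genes apart, because it was also so for genes that were not called. Among these were Acan, Col3a1, Eef1a1, Rplp0, Eef2, Thbs1 and Mgp. The share of all tested genes without overlap was not counted.

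The defining cartilage genes did not pass this test. Col2a1 was at 15203, 18516 and 12435 FPKM with bleomycin, which overlapped the vehicle range, with a log2 difference of -0.38 ± 0.34 (adjusted p = 0.661). Acan was at 619, 693 and 546 FPKM, below all vehicle libraries, with -1.03 ± 0.28 (adjusted p = 0.0653). It passed without ST045849 library 1 (adjusted p = 0.0259), in a fit of the 2 groups alone (0.0274), with an untrended variance (0.0436) and with the length trend removed (0.0248). Sox9 differed by -0.27 ± 0.28 (adjusted p = 0.718) and Col3a1 by 0.84 ± 0.33 (adjusted p = 0.211). Timp3 differed by 1.03 ± 0.27 (adjusted p = 0.0579) and passed in 6 alternatives, at 0.0227 without ST045849 library 1 and 0.0385 without library 2 of that group among them. Mgp differed by 1.02 ± 0.29 (adjusted p = 0.0722) and passed in 4, with adjusted p of 0.0370 to 0.0440. Rplp0, Eef2 and Rack1, genes of the translation machinery, differed by -0.86, -0.72 and -0.94, with adjusted p of 0.123 to 0.128. With the length trend removed, Rplp0 (adjusted p = 0.0230) and Eef2 (adjusted p = 0.0459) passed. With bleomycin plus ST045849, Acan was at 558, 384 and 292 FPKM and was called, at -1.66 ± 0.28 (adjusted p = 0.00657). Of the 7 listed cartilage collagen genes 3 were called lower with that treatment, Col11a1 and Col11a2 among them. Whether the 2 treatments differ was not tested here.

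**Figure D5:**
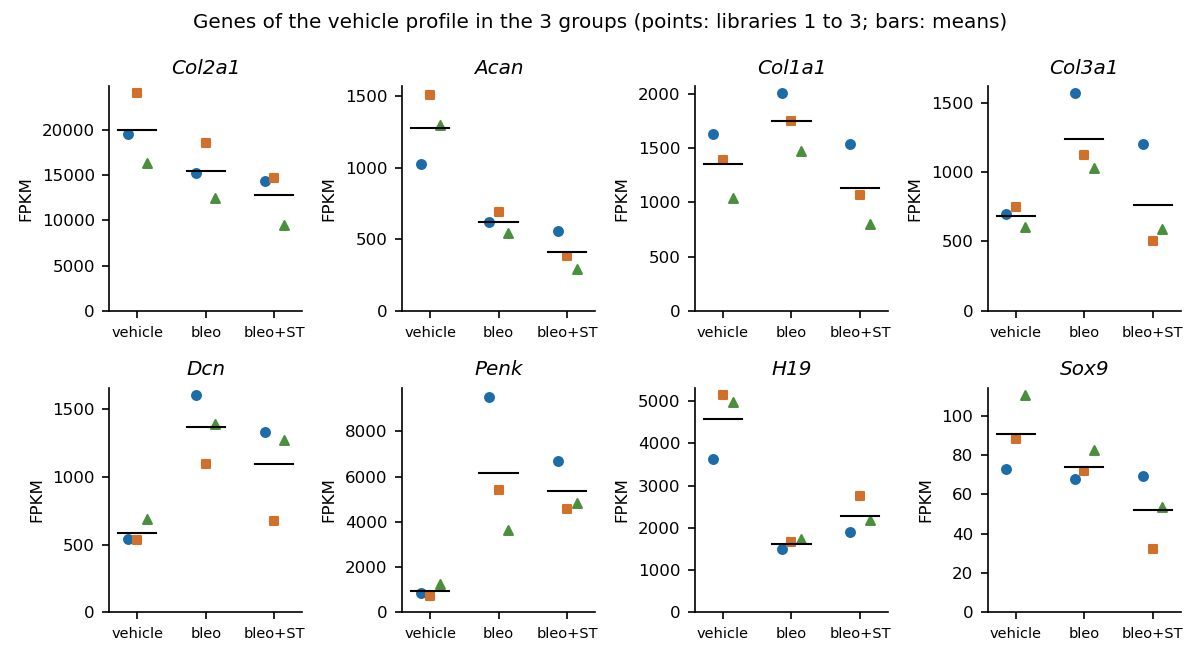
FPKM of 8 genes of the vehicle profile in each library of the vehicle, bleomycin (bleo) and bleomycin plus ST045849 (bleo+ST) groups, with bars for group means and symbols for libraries 1 to 3. The ranges of Penk, Dcn, H19, Acan and Col3a1 do not overlap between vehicle and bleomycin, although Acan and Col3a1 were not called. Those of Col2a1, Col1a1 and Sox9 do overlap.

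The listed genes are counted below only where they belong to the baseline set, because other tested genes passed the filter through the treated libraries (of 1372 such genes 189 were called higher and 0 lower with bleomycin). The baseline genes in turn were chosen by their vehicle values, and all 84 lower calls with bleomycin fell among them. The counts are descriptions, to be read beside 4.20% higher and 0.675% lower over all tested genes, and 3.02% and 0.759% over the baseline genes, whose median difference was 0.08. Of 153 matrix genes 20 were called higher and 3 lower (14 and 5 with median-of-ratios scaling), with a median of 0.25. Of 79 secreted factor genes 19 were higher and 0 lower (16 and 1 after scaling), with a median of 0.57. Among them Dkk3, Sfrp2 and Rspo2, which act on WNT signalling, differed by 1.61, 2.08 and 2.45 on the log2 scale. Of 102 receptor genes 9 were higher and 2 lower (4 and 3 after scaling). Of 99 transcription factor genes 6 were higher and 1, Sox8, was lower (6 and 3 after scaling).

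The 7 cartilage collagen genes had 0 calls with bleomycin under either scaling and a median of -0.52. Of 9 protease inhibitor genes 5 were higher (4 after scaling), among them Timp2, which went from 206 to 228 FPKM in vehicle to 508 to 567 with bleomycin (1.32 ± 0.19, adjusted p = 0.0043). Of 15 matrix-degrading enzyme genes 6 were higher (5 after scaling), among them Mmp13 (2.43 ± 0.51, adjusted p = 0.0221). Prg4 went from 9.50 to 14.9 FPKM to 37.7 to 62.1 (1.88 ± 0.23, adjusted p = 0.00263). Of 17 imprinted growth genes 4 were lower and 0 higher, with and without scaling, and their median was -0.56.

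Levels of some other marker lists differed in the same comparison. The 14 macrophage markers summed to 3.33 to 6.33 FPKM in vehicle and 11.3 to 12.9 with bleomycin, almost all of it from Cd14, Cd68 and Lyz2. C1qa, C1qb, C1qc, Tyrobp and Fcgr1 were listed at 0 in both groups, and Ptprc and Adgre1 reached at most 0.0171 and 0.0247 FPKM with bleomycin. Of 10 fibroblast and synovial genes in the set 3 were higher, with and without scaling. Of 10 interferon-stimulated genes in the set 5 were higher (2 after scaling), Ddx58, Irf9, Bst2, Tap1 and Xaf1. Their part in the other results was not tested.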

How the data were processed

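RNA from 9 libraries in 3 groups was made into stranded poly(A) libraries, per the labels' protocols. Trimmomatic, STAR and the GRCm38 build were used, per the submitters' processing notes, which name no versions. The authors deposited 1 FPKM value per gene and library. How fragments were counted, the annotation, the denominator and the use of strand: not given in the sources used here. Annotation came from GENCODE vM21 (99.5% of identifiers found), and 0 mitochondrial genes were listed.

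Genes with 1 FPKM or more in 3 vehicle libraries formed the baseline set. Levels in vehicle were described without a test. All 9 libraries were fitted with limma 3.58.1 (R 4.3.3) on log2(FPKM + 1) for 12441 genes with 1 FPKM or more in at least 3 libraries, with variances that follow the mean. The script was tested on simulated data. Fragment depth was read from steps of FPKM times exon length, where in vehicle 28.9 to 29.6% of low values were within 0.02 of a whole multiple (4% if spread evenly), so this depth is an estimate. Identifiers sharing a symbol numbered 234. Exons overlapped another gene by over 10% on the same strand for 12 and on the opposite strand for 61 of 673 listed genes in the set.

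Named are the 25 highest genes, up to 6 highest and the members below 0.1 FPKM of 57 lists (1012 symbols), the 10 most and least variable, 2 on each side of the threshold, and the 5 smallest p in each direction with bleomycin among the 100 highest. Some genes that this rule names are not reported here. The members and lists were chosen with earlier results of these data known, and the ratios, Hox clusters and further genes such as Igf1, Sox5, Vcan, Prg4 and Runx2 after values were seen. Alternatives covered thresholds, scaling (TPM, median-of-ratios, quantile), pseudocounts, filters, variance, a replicate block and single libraries left out. Counting only baseline members of the lists in the comparisons was chosen after seeing the data.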

Additional observations from a re-analysis of the deposited data

How the results depend on the processing

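The baseline set of 11069 genes ranged from 11216 to 11295 when 1 vehicle library was left out, and a threshold of 5 FPKM left 6850. The share of the 100 highest genes ranged from 33.6 to 35.5% with 1 library left out and was 30.9% without Col2a1. The median SD ranged from 0.15 (without library 1) to 0.25. List members in the set ranged from 677 to 690 with 1 library left out.

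Counts of called genes moved more, and the cause was not tested. With 1 of 9 libraries left out, the baseline genes called with bleomycin numbered 130 to 583 (101 to 462 higher, 20 to 121 lower), and with bleomycin plus ST045849 205 to 2672 (174 to 1924 higher, 31 to 748 lower). The smallest of these, 205, came without vehicle library 2 and the largest, 2672, without ST045849 library 1. With no filter they were 216 (174 higher, 42 lower) and 380 (320 higher, 60 lower). With a mean of at least 5 FPKM they were 277 with 47 lower for bleomycin and 99 lower for bleomycin plus ST045849, where fewer genes were tested. Fits of the 2 groups alone gave 751 (601 higher, 150 lower) and 452 (324 higher, 128 lower). With median-of-ratios scaling 184 were higher and 150 lower with bleomycin, and 315 and 396 with bleomycin plus ST045849. TPM gave 551 for bleomycin plus ST045849 with 337 higher. Quantile normalization gave 150 lower with bleomycin and 354 higher with bleomycin plus ST045849, and with the length trend removed, which was chosen after seeing the data, the numbers were 189 and 348. Quantile normalization sets Col2a1, the highest gene in every library, to a difference of 0 by construction.

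Over the baseline genes, deviations of vehicle libraries from their group mean correlated with those of equal number at -0.10, -0.02 and 0.58 with bleomycin. With bleomycin plus ST045849 these values were -0.58, -0.31 and 0.42. The Y-linked genes Eif2s3y, Uty and Kdm5d were highest in library 1 and lowest in library 2 of every group. Ddx3y, also Y-linked, was lowest in library 2 of every group but highest in vehicle library 3. Xist was lowest in library 1 of every group. Whether libraries of equal number share a cell preparation was not tested. Of the vehicle libraries only library 3 correlated best with its own number in both groups. Vehicle library 1 correlated best with number 2 (0.33 and 0.62) and library 2 with number 1 (0.26 and 0.61). Equal numbers of the bleomycin and bleomycin plus ST045849 groups correlated at 0.48, 0.50 and 0.51, and unequal numbers at -0.32 to -0.17. The main fit treated all 9 libraries as independent, with no term for the replicate number, so its adjusted p values leave this pattern out. With a replicate block, 497 baseline genes were called with bleomycin (400 higher, 97 lower) and 1080 with bleomycin plus ST045849 (793 higher, 287 lower). Timp3 (adjusted p = 0.0371) and Mgp (adjusted p = 0.0370) then passed. H19 was lost with no filter (adjusted p = 0.148). Penk was called in every fit but that with no filter (adjusted p = 0.0645), and its adjusted p ranged up to 0.0266 with 1 library left out. Dcn failed in 12 of 20 alternatives. At this depth, a gene of 1 kb below 0.1 FPKM had under 4 fragments, and a longer gene could have more. A value below 0.1 FPKM therefore means a low level or none detected, and is no proof that the RNA was lacking.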
